A study of Mus musculus with 11 samples.

Results

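Lipid droplet and lipolysis genes are described here as a list of 10 named genes that build the protein coat of the fat droplet or break its fat down. Members are given by gene name, and the list was drawn up with earlier results of these data known. It holds Plin1, Plin4, Plin5, Cidea, Cidec, Pnpla2, Lipe, Mgll, Adrb3 and Abhd5. All 10 were found among the 22600 genes of the count table, and 9 of them passed the filter on low counts that left 16496 genes for testing. Cidea did not pass, with 58 counts summed over all libraries.

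Gene expression was measured by strand-specific RNA-Seq of whole distal tibiae, the lower shin bone with its marrow, from 4 Control and 7 BMAd-DTA mice, at 16969529 to 18637663 counts per library. All were C57BL6/SJL mice at 24 weeks of age, fed ad libitum and otherwise untreated, with genotypes labelled BMAd-DTA and, for controls, BMAd-WT. In BMAd-DTA mice, diphtheria toxin A (DTA) is released from the Rosa locus when Cre removes a STOP cassette. Cre sits in the Adipoq locus as an allele called FAC that is switched on by FLPo from the Osterix locus, so that it acts where expression of both genes overlaps, which is mainly in bone marrow adipocytes (BMAds). The study's methods state that controls also carried Osterix-FLPo and FAC. Elsewhere the study describes recombination by Cre as more complete in older animals, and marrow adipogenic lineage precursors as apparently targeted only in small part. The DTA transcript itself was not analysed here.

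A lipid droplet is a store of neutral fat wrapped in a single phospholipid layer and a coat of proteins, of which perilipin 1 is the main one in white adipocytes. When the beta-adrenergic receptor raises cAMP, protein kinase A phosphorylates perilipin 1 and hormone-sensitive lipase, and the coat lets go of the coactivator ABHD5, which then turns on the lipase ATGL. Fatty acids are then cut from the stored fat in turn by ATGL, hormone-sensitive lipase and monoglyceride lipase. Marrow adipocytes of the distal tibia are densely packed and hold large single droplets.

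The levels of these genes were lower in BMAd-DTA than in Control tibiae in the fit of 9 of 9 tested genes, but none of the 9 differences passed the threshold of 0.05 on the adjusted p. The median log2 fold change of the 9 genes was -0.60, compared with 0.0018 over all 16496 genes, of which 49.6% were fitted lower. Adjusted p ranged from 0.0820 for Lipe to 0.624 for Plin5 (edgeR quasi-likelihood test, Benjamini-Hochberg over all tested genes). The same test called 13 of 16496 genes, which is 0.0788%, and 1 gene was called lower, which is 0.00606%. At an unadjusted p under 0.05, 8 of the 9 genes were lower against 8.53% of all tested genes. DESeq2 called 3 of them lower, Lipe, Pnpla2 and Adrb3, against 1.82% of the 22593 genes to which it gave a p. Some of those genes, such as Cidea, were left without an adjusted p and could not be called. In whole bone, fewer adipocytes and less RNA per adipocyte cannot be told apart.

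**Figure D1:**
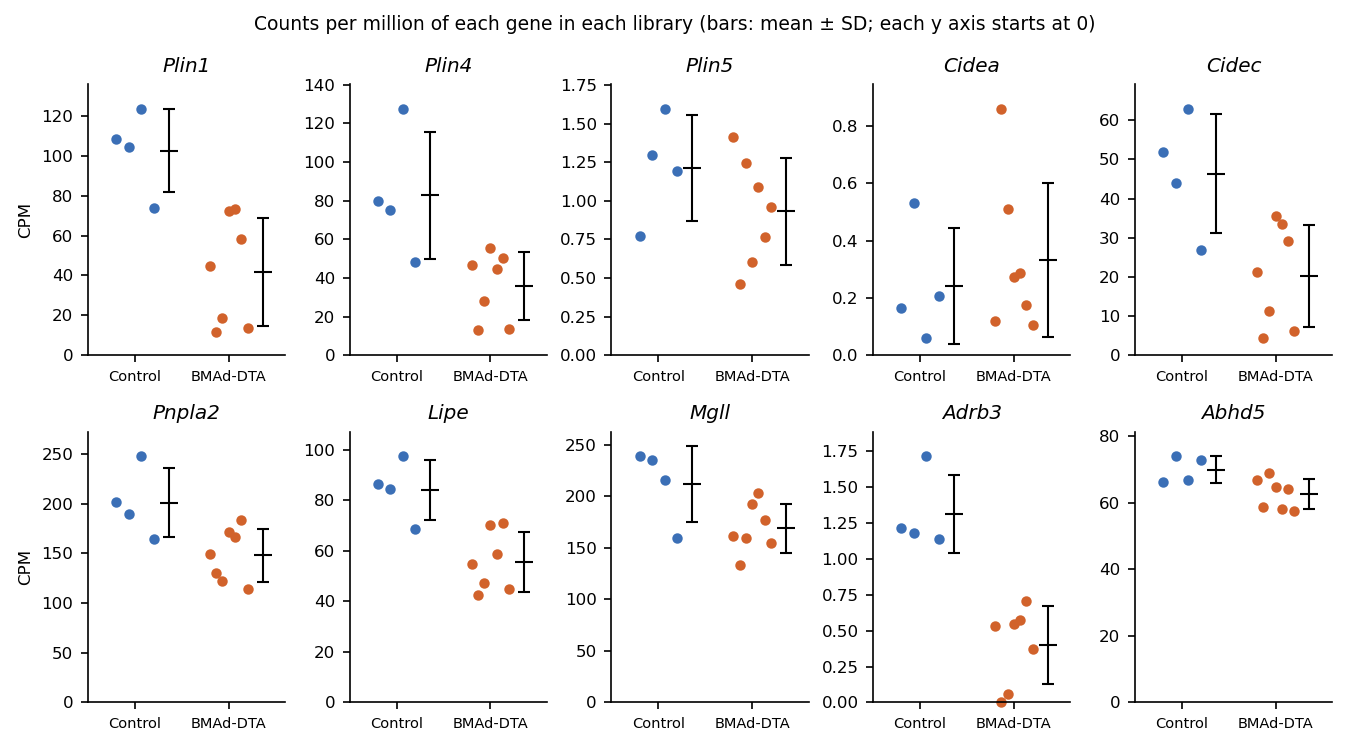
Each panel plots the level of a gene, in counts per 1000000 scaled counts of the library (CPM), in every library, with Control in blue and BMAd-DTA in orange, and black bars give the mean ± SD of 4 Control and 7 BMAd-DTA libraries. Plin1 and Adrb3 are the panels in which all 7 BMAd-DTA points lie below all 4 Control points.

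The fitted size of the difference varied between the genes, but no ratio to Plin1, tested further below, passed after adjustment. The 95% intervals of Adrb3, Plin1, Cidec and Plin4 overlapped those of the lipases. Those of Adrb3, Plin1 and Plin4 lay below the interval of Abhd5, for Plin1 only just. The largest fitted log2 fold changes were those of Adrb3, Plin1, Cidec and Plin4, from -1.70 to -1.20. The lipases Lipe, Pnpla2 and Mgll had values from -0.60 to -0.33, and Abhd5 had -0.16. The coat gene Plin5 had -0.38 with a 95% interval from -1.08 to 0.33, which includes 0.

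**Figure D2:**
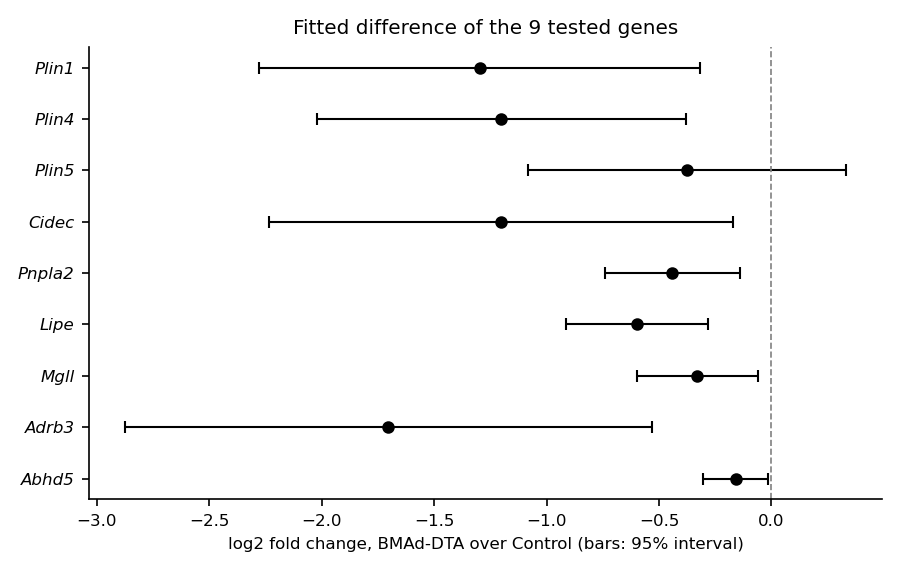
Points give the log2 fold change of BMAd-DTA over Control from edgeR for the 9 tested genes, bars give its 95% interval, and the dashed line marks 0. The interval of Plin5 is the one that crosses 0, and the narrowest interval is that of Abhd5, from -0.31 to -0.01.

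Plin1 (ENSMUSG00000030546.14, chr7:79720218-79732903 on the minus strand of GRCm38) encodes perilipin 1, the coat protein that guards the droplet of white adipocytes against lipases. Its level was 109, 105, 123 and 73.8 CPM in Control replicates 1 to 4. In the 7 BMAd-DTA libraries the lowest was 11.4, the median 44.6 and the highest 73.3 CPM. Every BMAd-DTA library was thus below every Control library, a pattern met by 1.04% of all tested genes, although the highest BMAd-DTA and the lowest Control library were nearly level. The means were 103 ± 20.9 CPM (SD, n = 4) and 41.7 ± 27.3 CPM (SD, n = 7). The log2 fold change was -1.30 ± 0.45 (SE), with an edgeR adjusted p of 0.173 and a two-sided exact permutation p of 0.0242. With 4 against 7 libraries there are 330 arrangements, so the exact test cannot give a p below 0.00303. BMAd-DTA libraries spread far more than Control libraries, with a 6.43-fold span from lowest to highest against 1.67-fold in Control.

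Plin4 (ENSMUSG00000002831.14, chr17:56100591-56109803, minus strand) encodes perilipin 4, which coats small nascent droplets of adipocytes. Control replicates 1 to 4 had 79.8, 75.2, 127 and 48.3 CPM. The BMAd-DTA libraries had 13.01 at the lowest, 44.8 at the median and 55.3 CPM at the highest. The groups overlapped only through Control replicate 4, and 5 of 7 BMAd-DTA libraries were below it. Plin4 had a log2 fold change of -1.20 ± 0.38 (SE), with an edgeR adjusted p of 0.140 and an exact permutation p of 0.0242.

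Plin5 (ENSMUSG00000011305.11, chr17:56111601-56117596, minus strand) encodes perilipin 5, the droplet coat protein of oxidative tissues such as heart, liver and muscle, and lies next to Plin4. It had few reads, with 14 to 27 counts in Control and 8 to 24 counts in BMAd-DTA libraries. The means were 1.21 ± 0.34 CPM (SD, n = 4) and 0.93 ± 0.35 CPM (SD, n = 7), and the groups overlapped widely. A difference was not detectable at this depth (edgeR adjusted p = 0.624).

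Cidec (ENSMUSG00000030278.11, chr6:113424634-113435760, minus strand) encodes the protein also called FSP27, which sits where droplets touch and moves fat from the smaller into the larger one. Its level in Control replicates 1 to 4 was 51.9, 44.1, 62.9 and 26.8 CPM. In BMAd-DTA libraries it was 4.30 at the lowest, 21.3 at the median and 35.5 CPM at the highest. Replicates 4, 5 and 6 of BMAd-DTA were above Control replicate 4, and the other 4 were below it. For Cidec the log2 fold change was -1.20 ± 0.48 (SE), with an edgeR adjusted p of 0.225 and an exact permutation p of 0.0424. The span within BMAd-DTA was 8.26-fold, wider than the span of Plin1.

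Cidea (ENSMUSG00000024526.9, chr18:67343604-67367785, plus strand) encodes the relative of Cidec that is best known from brown adipocytes. It had 1 to 9 counts in Control and 2 to 15 counts in BMAd-DTA libraries, or 0.24 ± 0.20 CPM (SD, n = 4) and 0.33 ± 0.27 CPM (SD, n = 7). The groups overlapped, and the highest value, 0.86 CPM, was in BMAd-DTA replicate 2, the library with the lowest Plin1. In a fit without the filter its log2 fold change was 0.46, with a 95% interval from -1.01 to 1.93.

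The lipases had smaller fitted differences and shared the lowest Control library and the 3 lowest BMAd-DTA libraries with Plin1. Pnpla2 (ENSMUSG00000025509.15, chr7:141455198-141460743, plus strand) encodes ATGL, which takes the first fatty acid from stored triglyceride. It had 202, 189, 247 and 165 CPM in Control replicates 1 to 4. The BMAd-DTA libraries ran from 114 through a median of 149 to 184 CPM. The 4 BMAd-DTA libraries at or under the median were below every Control library, and the other 3 overlapped Control replicate 4. The log2 fold change was -0.44 ± 0.14 (SE), with adjusted p of 0.138 by edgeR and 0.0391 by DESeq2, and an exact permutation p of 0.0273.

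Lipe (ENSMUSG00000003123.15, chr7:25379527-25398710, minus strand) encodes hormone-sensitive lipase, which cuts the diglyceride that ATGL leaves. Control replicates 1 to 4 had 86.5, 84.3, 97.4 and 68.4 CPM. The lowest, median and highest BMAd-DTA libraries had 42.4, 54.9 and 71.0 CPM. BMAd-DTA replicates 4 and 6 were above Control replicate 4, and the other 5 were below all Control libraries. The fit gave a log2 fold change of -0.60 ± 0.15 (SE), so that the BMAd-DTA level was 66.1% of Control, with adjusted p of 0.0820 by edgeR and 0.00492 by DESeq2, and an exact permutation p of 0.0152. An antisense gene, 4732471J01Rik, covers 15.6% of the exon bases of Lipe, but the reads were counted by strand.

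Mgll (ENSMUSG00000033174.17, chr6:88724412-88828360, plus strand) encodes monoglyceride lipase, which releases the last fatty acid and also breaks down the endocannabinoid 2-arachidonoylglycerol. It had 239, 235, 215 and 159 CPM in Control replicates 1 to 4. The BMAd-DTA libraries had 133 at the lowest, 161 at the median and 203 CPM at the highest. Control replicate 4 lay among the BMAd-DTA values, while the other Control libraries were above all of them. For Mgll the log2 fold change was -0.33 ± 0.12 (SE), with an edgeR adjusted p of 0.204 and an exact permutation p of 0.0606.

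Abhd5 (ENSMUSG00000032540.16, chr9:122351608-122381524, plus strand) encodes the coactivator of ATGL, also called CGI-58, and is expressed in many tissues. Its level varied least, at 66.4, 74.0, 66.7 and 73.0 CPM in Control replicates 1 to 4 and from 57.4 through 64.0 to 68.9 CPM in BMAd-DTA libraries. The groups overlapped by 2 BMAd-DTA libraries. The fit gave a log2 fold change of -0.16 ± 0.07 (SE), a BMAd-DTA level of 89.5% of Control, with an edgeR adjusted p of 0.256 and an exact permutation p of 0.0394.

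Adrb3 (ENSMUSG00000031489.15, chr8:27225776-27250616, minus strand) encodes the beta-3 adrenergic receptor, through which noradrenaline starts lipolysis in rodent adipocytes. It had 22, 20, 29 and 22 counts in Control replicates 1 to 4, or 1.21, 1.18, 1.71 and 1.14 CPM. The BMAd-DTA libraries had between 0 and 12 counts, with a median of 0.53 CPM. All 7 BMAd-DTA libraries were below all 4 Control libraries. BMAd-DTA replicate 2 had no count, which allows a level of up to 0.172 CPM, taken as 3 counts in that library. This limit covers counting error only. The log2 fold change was -1.70 ± 0.54 (SE), with a 95% interval from -2.87 to -0.53, adjusted p of 0.141 by edgeR and 0.0338 by DESeq2, and an exact permutation p of 0.0152. The antisense gene Gm45470 covers 24.9% of the exon bases of Adrb3, and 4.70% of the reads over the gene were on the opposite strand.

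Levels of different genes were compared as CPM per kb of merged exon, since longer transcripts give more reads. In Control tibiae the order by mean was Pnpla2 with 66.5, Mgll with 41.7, Cidec with 25.0, Plin1 with 22.1, Plin4 with 14.3, Lipe with 14.3, Abhd5 with 11.8, Plin5 with 0.58, Adrb3 with 0.39 and Cidea with 0.22 CPM per kb. Per length, the lipases Pnpla2 and Mgll thus stood above the coat genes and Lipe level with Plin4. Neighbours in this order overlapped between Control libraries except at 2 steps, from Pnpla2 to Mgll and from Abhd5 to Plin5. In BMAd-DTA tibiae the means were 49.0 for Pnpla2, 33.2 for Mgll, 10.9 for Cidec, 10.5 for Abhd5, 9.44 for Lipe, 8.98 for Plin1 and 6.22 CPM per kb for Plin4. Plin1 thus stood at place 4 in Control and 6 in BMAd-DTA, and Abhd5 at place 7 and 4.

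**Figure D3:**
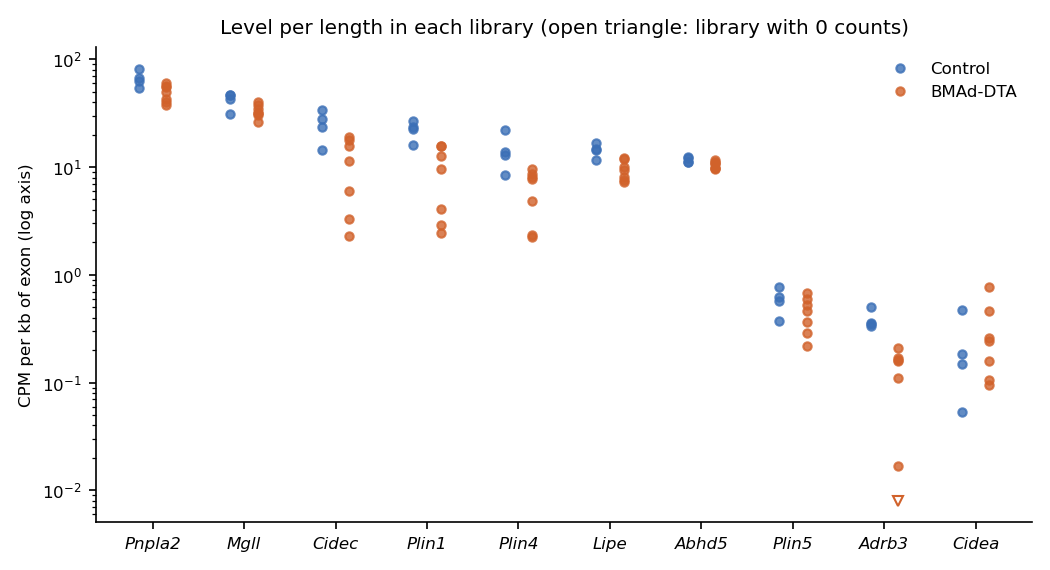
Points give CPM per kb of merged exon on a log axis for each library, Control in blue and BMAd-DTA in orange, with genes ordered by their Control mean. Plin5, Adrb3 and Cidea lie below 1 CPM per kb in every library, and the open triangle marks the BMAd-DTA library with 0 counts of Adrb3.

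To ask whether the differences were unequal within a tibia, the log2 ratio of each gene to Plin1 was taken in every library and tested over 9 ratios. The ratio to Plin1 was higher in BMAd-DTA by 1.30 log2 units for Mgll, 1.18 for Pnpla2, 1.46 for Abhd5 and 1.01 for Lipe, with exact permutation p from 0.0273 to 0.0364 and 0.0818 after Benjamini-Hochberg adjustment. It was higher by 1.93 for Cidea and 1.24 for Plin5, both of few counts, with exact permutation p of 0.0515 and 0.0848, or 0.0927 and 0.127 after adjustment. For Mgll and Pnpla2 the ratio was higher in all 7 BMAd-DTA than in all 4 Control libraries. The share of all genes with this pattern was not computed, and all 9 ratios share the divisor Plin1, itself lower in every BMAd-DTA library. For Pnpla2 the nearest libraries were almost level. BMAd-DTA replicate 5 had 166 CPM of Pnpla2 and 73.3 of Plin1, and Control replicate 4 had 165 and 73.8. The ratio differed by 0.30 for Plin4, 0.12 for Cidec and -0.13 for Adrb3, with exact permutation p of 0.239, 0.345 and 0.794. None of the 9 ratios passed 0.05 after adjustment.

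The genes also varied together among BMAd-DTA tibiae. In 7 of the 10 genes, all but Plin5, Cidea and Abhd5, the 3 lowest BMAd-DTA libraries were replicates 2, 3 and 7. In the same 7 genes the lowest Control library was replicate 4. For Plin1 these 3 libraries had at most 18.8 CPM, and the next had 44.6 CPM. Within the 7 BMAd-DTA libraries the correlation of log2 CPM was 0.99 for Plin1 with Cidec, 0.97 for Plin4 with Cidec, 0.95 for Plin1 with Plin4 and 0.93 for Pnpla2 with Lipe, against 0.17 for Plin1 with Plin5 and 0.25 for Plin1 with Abhd5. These values describe points that share a library and its scaling.

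This spread was set beside an adipocyte score, the mean log2 CPM of 23 other adipocyte markers such as Adipoq, Cfd, Lpl and Pparg, of which the most abundant was Scd1. The score was 5.06 to 5.81 in Control and 3.94 to 5.28 in BMAd-DTA libraries, a difference of -0.89 (exact permutation p = 0.0273). Of 20 relations with this and a muscle score, 7 passed 0.05 after Benjamini-Hochberg adjustment, all with the adipocyte score. Pearson's r over 11 libraries was 0.99 for Plin1, 0.97 for Plin4, 0.99 for Cidec, 0.94 for Pnpla2, 0.96 for Lipe, 0.91 for Mgll and 0.86 for Adrb3. Permutation p was 1e-05 for Plin1, Plin4, Cidec and Lipe, the smallest that 100000 resamples can give, and at most 0.00086 for the others, or from 5e-05 to 0.00246 after adjustment. Spearman's rho for the 7 genes was between 0.909 and 0.991, with permutation p of at most 0.00031 and adjusted p of at most 0.000886. The libraries of both groups were permuted together, so that these p-values also take in the group difference in the score and the genes. No p was computed within a group. Without BMAd-DTA replicates 2 and 7, the libraries farthest from the median score, r was 0.884 to 0.989, and within the 7 BMAd-DTA libraries it was 0.758 to 0.996. Abhd5 had r = 0.50 and rho = 0.26 (permutation p = 0.116 and 0.434, adjusted 0.207 and 0.475), and Plin5 had r = 0.35 and rho = 0.33 (permutation p = 0.286 and 0.326, adjusted 0.325 and 0.400).

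**Figure D4:**
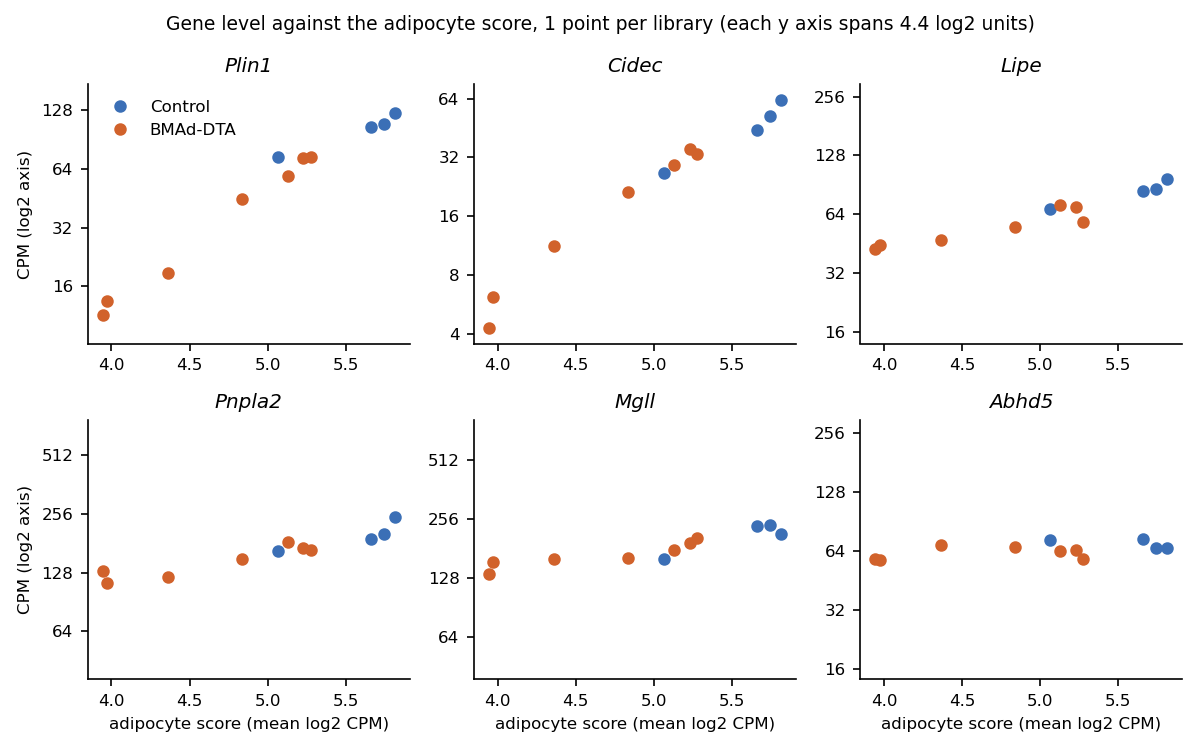
Each point is a library, Control in blue and BMAd-DTA in orange, with the mean log2 CPM of the adipocyte markers on the x axis and the CPM of the gene on a log2 y axis of equal span in all panels. The points of Plin1 and Cidec climb steeply along the score, Lipe, Pnpla2 and Mgll less so, and Abhd5 is nearly flat, with r of 0.99, 0.99, 0.96, 0.94, 0.91 and 0.50.

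Several of these genes are also used by skeletal muscle, which can cling to a dissected tibia, and muscle content differed widely between libraries. The summed level of 20 muscle markers was 64.1 to 1734 CPM in Control and 68.5 to 1359 CPM in BMAd-DTA libraries, and all 20 were fitted lower, none past the adjusted threshold, with Atp2a1 the most abundant at 149 ± 144 CPM (SD, n = 4) and 75.8 ± 90.4 CPM (SD, n = 7). Over all 11 libraries none of the 10 genes passed for the muscle score after adjustment, but this rested on single libraries. Without BMAd-DTA replicate 7, Plin4, Cidec, Pnpla2 and Lipe passed with r from 0.657 to 0.753 (permutation test, adjusted p of at most 0.0495). Without Control replicate 4, Cidea and Adrb3 passed with r of -0.71 and 0.77, and without Control replicate 2, Cidea passed with r of -0.78. Over all libraries the strongest relation was that of Cidea, with r = -0.61 and rho = -0.66 (permutation p = 0.0459 and 0.0304, adjusted 0.115 for r). Cidea had 58 counts over all libraries and did not pass the filter on low counts, so that its relations rest on few reads. With the muscle score as a covariate, the log2 fold change was -1.18 for Plin1, -0.51 for Lipe and -0.27 for Mgll. In this fit 6 of the 9 genes were lower at an unadjusted p under 0.05, compared with 1203 of 16496 tested genes. Cidec, Mgll and Plin5 did not pass. The part of muscle in the group differences beyond this fit was not tested. Brown adipocyte markers summed to 40.7 to 51.4 CPM in Control and 39.0 to 44.5 CPM in BMAd-DTA libraries. The most abundant was Dio2, which is not specific to brown fat, at 21.4 ± 3.37 CPM (SD, n = 4) and 19.5 ± 3.60 CPM (SD, n = 7). The defining marker Ucp1 was at 0.13 ± 0.10 CPM (SD, n = 4) and 0.57 ± 0.76 CPM (SD, n = 7). It had 79 counts over all libraries and was not tested, and its BMAd-DTA values ran from 0.17 to 2.27 CPM. The 7 tested of the list had a median of 0.07 on the log2 scale, where 1 gene was lower at an unadjusted p under 0.05, against 8.53% of all tested genes.

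Of 4 further marker lists, bone tissue had a median away from 0. The 11 bone tissue markers were all fitted higher in BMAd-DTA, at a median of 0.80 on the log2 scale. Of these, 10 were at an unadjusted p under 0.05 compared with 7.89% of all tested genes higher, but none past the adjusted one. Their sum was 3373 to 13528 CPM in Control and 16392 to 36587 CPM in BMAd-DTA libraries, with Col1a1 the most abundant. The medians of the macrophage, marrow stroma and blood cell markers were -0.02, -0.05 and -0.05, with Vcam1, Cxcl12 and Hba-a1 the most abundant. What the larger share of bone transcripts adds to the lower CPM of the droplet genes was not tested.

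The promoters of genes that varied together were read to show their sequence. RefSeq windows of GRCm38.p6 were matched for 8 of the 10 genes, 12 windows in all, of which some genes have 2. The stretches below lie within 250 bases before an annotated start and stop at the first base of any annotated exon. Plin1 and Cidec are shown as the pair with the highest correlation, Pnpla2 as the lipase with the highest CPM per kb and Abhd5 as the gene with the smallest difference. The window of the first start of Cidec, chr6:113435761-113436010, held none of the motifs and is not shown. Capitals mark the motif TTGCNNAA, a core bound by C/EBP factors, the motif AGGTCA, which nuclear receptors bind, and TGACGTCA with up to 1 mismatch, the cAMP response element.
Plin1, chr7:79732904-79733026, minus strand: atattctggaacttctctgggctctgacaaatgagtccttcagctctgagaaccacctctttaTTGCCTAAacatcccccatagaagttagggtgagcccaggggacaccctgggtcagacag
Cidec, second start, chr6:113434765-113435014, minus strand: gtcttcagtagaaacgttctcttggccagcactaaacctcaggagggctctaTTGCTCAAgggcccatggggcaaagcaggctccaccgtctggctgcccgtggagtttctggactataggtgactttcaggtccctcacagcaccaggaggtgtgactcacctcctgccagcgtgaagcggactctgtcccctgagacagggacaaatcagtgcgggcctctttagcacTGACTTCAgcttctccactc
Pnpla2, chr7:141454938-141455187, plus strand: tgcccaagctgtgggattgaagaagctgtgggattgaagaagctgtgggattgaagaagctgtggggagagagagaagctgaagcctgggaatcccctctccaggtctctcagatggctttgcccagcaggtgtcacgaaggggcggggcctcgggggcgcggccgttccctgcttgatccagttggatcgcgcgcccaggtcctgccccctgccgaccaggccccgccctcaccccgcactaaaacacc
Abhd5, chr9:122351366-122351607, plus strand: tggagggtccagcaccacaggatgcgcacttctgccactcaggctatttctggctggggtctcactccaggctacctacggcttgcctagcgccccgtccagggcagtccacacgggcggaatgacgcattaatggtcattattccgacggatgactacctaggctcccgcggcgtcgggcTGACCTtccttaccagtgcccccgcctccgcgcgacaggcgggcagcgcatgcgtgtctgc

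In the 250 bases before each start, read on both strands, TTGCNNAA occurred in 2 of the 12 windows, those of Plin1 and the second start of Cidec, compared with 9.57% of all 32841 windows. The match in Plin1 begins 187 bases before the start, with a further one at 58 bases that falls in an exon of another transcript and is not shown. The match in Cidec begins 198 bases before the start. AGGTCA occurred in 2 of 12 windows, those of Abhd5 and Plin5, compared with 14% of all windows. The cAMP response element with up to 1 mismatch occurred in 2 of 12, those of Cidec and Plin5, compared with 10.6%. The match in Plin5 overlaps its AGGTCA. Neither TATAAA nor a pair of AGGTCA 1 base apart with up to 2 mismatches, the form that PPARG and RXR bind, was in any of the 12 windows, compared with 12.4% and 3.24% of all windows. A match is a match of letters only.

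The wider pathway was read from 3 lists, and none of their tested genes passed the adjusted threshold. Of 24 genes of droplet coat and biogenesis, 23 were tested, with 3 lower and 1 higher at an unadjusted p under 0.05, compared with 8.53% lower and 7.89% higher over all tested genes, and a median value of -0.07 on the log2 scale. The lowest were Fitm1 and Fitm2, which help droplets bud from the endoplasmic reticulum, with -0.43 and -0.37, and Pcyt1a, an enzyme of phosphatidylcholine synthesis, with -0.27. The highest were Plin2 and Plin3, coat proteins of droplets in most cell types, with 0.24 and 0.15, and Bscl2, which encodes seipin, with 0.12. Plin2 was thus at 77.3 ± 7.01 CPM (SD, n = 4) in Control and 91.5 ± 9.68 CPM (SD, n = 7) in BMAd-DTA tibiae, while Plin1 was at 103 and 41.7 CPM.

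Of 16 names of lipase regulators and accessory lipases, 14 were found and tested, with 5 lower and 2 higher at an unadjusted p under 0.05, against the same 8.53% and 7.89%, and a median of -0.10. The lowest were Ces1f, a carboxylesterase, with -1.64, Aqp7, the channel through which glycerol leaves the adipocyte, with -0.96, and Pnpla3, a relative of ATGL, with -0.92. Every BMAd-DTA library was below every Control library for Ces1f and Aqp7, as for 1.04% of all tested genes. The highest were Fabp5, a fatty acid carrier, with 0.47, Hilpda, an inhibitor of ATGL, with 0.37, and Dagla, a diglyceride lipase of neurons, with 0.36.

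All 37 genes of adrenergic and cAMP control of lipolysis were tested, with 9 lower and 3 higher at an unadjusted p under 0.05, beside 8.53% and 7.89% of all tested genes, and a median of -0.04. The lowest were Tshr, the thyrotropin receptor, with -0.96, and Hcar1, the lactate receptor that restrains lipolysis, with -0.90. Next was Adrb1, the beta-1 adrenergic receptor, with -0.86. Control libraries had 1.65 to 5.24 CPM of Adrb1, with a mean of 2.59 and an SD of 1.77 CPM. BMAd-DTA libraries had 1.01 to 1.84 CPM. The groups overlapped, and the wide Control spread limits what the value of Adrb1 can show. The highest were Adcy3, an adenylyl cyclase, with 0.63, Prkar1b, a regulatory subunit of protein kinase A, with 0.36, and Adora1, an adenosine receptor, with 0.36. DESeq2 called 3 genes over all 3 lists, Prkar2b, Tshr and Adcy5, each lower. They were named after their values were seen. Over all 22593 genes with a DESeq2 p, 845 were called in either direction, and 1.82% were called lower.

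**Figure D5:**
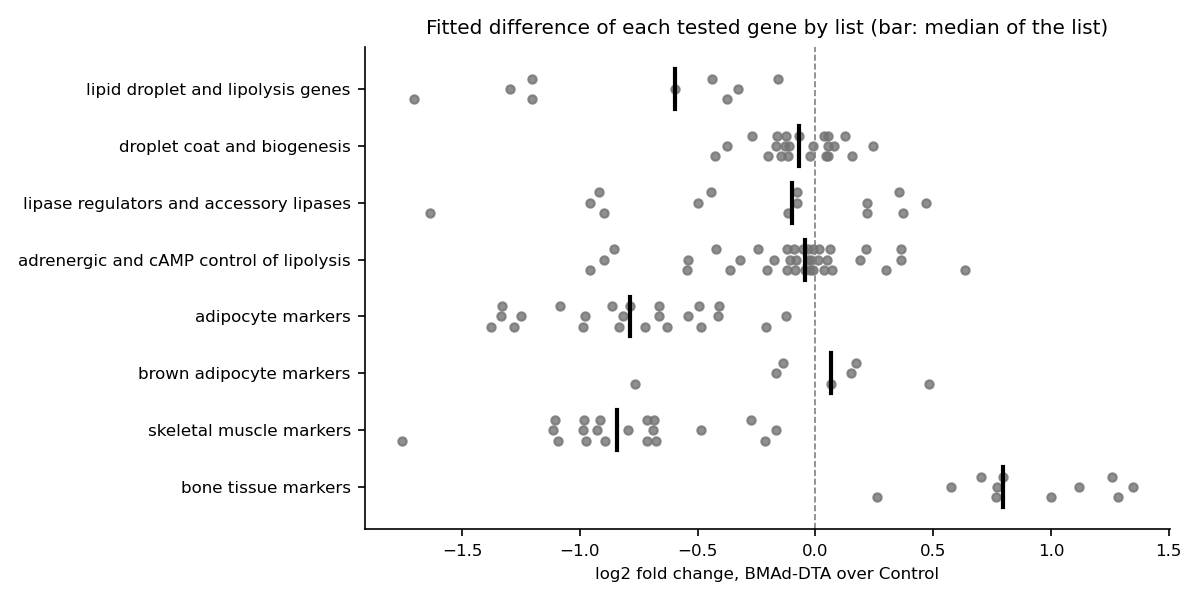
Each point is a tested gene placed by its log2 fold change of BMAd-DTA over Control, in rows by list, with a black bar at the list's median and a dashed line at 0. The lipid droplet and lipolysis genes, the adipocyte markers and the skeletal muscle markers lie left of 0, with medians of -0.60, -0.79 and -0.84. The 3 pathway lists and the brown adipocyte markers centre near 0, and the bone tissue markers lie right of it.

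The genes most like each member were sought among 14883 genes with a mean of at least 1 CPM by Pearson's r of log2 CPM over 11 libraries, as a description. For Plin1 these were Calml3, Scd1 and Cfd, with r from 0.992 to 0.996, and for Cidec they were Cfd, Calml3 and Gm10851, with r from 0.981 to 0.992. For Plin4 they were Cfd, Cyp2f2 and Fitm2, with r from 0.964 to 0.976. Smoc1, Rbp4 and Ppp1r1a led for Pnpla2 with r from 0.952 to 0.981, and Shisa3, Ppp1r1a and Mlxipl for Lipe with r from 0.952 to 0.958. Acsl1, which activates long-chain fatty acids, led for Mgll with 0.985, followed by Cyb5a with 0.971 and Pabpc1 with 0.960. Ces1f, BC067074 and Hcar1 led for Adrb3 with r from 0.944 to 0.973. For the genes outside the shared pattern the values were lower, from 0.832 to 0.931 with Zfp583 first for Plin5, from 0.833 to 0.868 with Eci2 first for Cidea and from 0.889 to 0.929 with Tubgcp5 first for Abhd5.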

How the data were processed

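The members and gene lists were chosen with earlier results of these data known. Per the labels and methods, paired-end stranded libraries were checked with FastQC 0.11.9 and aligned with STAR at default parameters to mm10, and the authors deposited whole-number counts per gene, as 1 file per library with 55401 genes and as a merged table of 22600 genes that equals the read-strand column (95.9% to 96.3% of stranded gene reads). The STAR version and the counting settings are not given in the sources used here. Totals were 16969529 to 18637663 counts per library (median 17612195), so that 1 CPM is about 17 counts.

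Genes were filtered by filterByExpr, scaled by TMM and tested with edgeR 4.0.16 (quasi-likelihood, Benjamini-Hochberg) over all 11 libraries with genotype as the term, in R 4.3.3. The scripts were checked on simulated data. CPM use TMM-scaled totals, and log2 CPM a prior count of 2. Single values were tested by two-sided exact permutation. Named genes were all members, every pathway gene with adjusted p under 0.05, the 3 highest and 3 lowest of each pathway list, the 3 most alike genes per member and the most abundant marker of each list. Other marker genes are named as examples. Exons are from GENCODE M21, matched to 99.9% of the gene IDs. Alternatives were DESeq2 1.42.0, limma-voom (limma 3.58.1), other scalings, filters and count columns, a prior count of 0.5, a muscle covariate and leaving out each library. Nothing states how animals were allotted to batches, so that the p-values cannot separate a batch difference, if any, from the genotype difference. No protein sequences were used here.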

Additional observations from a re-analysis of the deposited data

Results flagged for a closer look

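Among 24 groups of libraries examined for a library standing apart from the rest of its group, 1 was found, and chance alone gives about 1 in 20. Adrb3 was at 1.71 CPM in Control replicate 3, farther from the other Control libraries, at 1.14 to 1.21 CPM, than their spread allows by Dixon's test. The library rested on 29 counts against 20 to 22 in the other Control libraries.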

How the results depend on the processing

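All 9 tested genes kept a negative log2 fold change under all 21 alternatives, and their median stayed between -0.69 and -0.51. The number of them with an adjusted p under 0.05 was 3 with DESeq2, where Lipe (-0.60), Pnpla2 (-0.44) and Adrb3 (-1.73) passed, and 0 under every other alternative. At an unadjusted p under 0.05 the number was 6 to 8, with 6 without Control replicate 1, without Control replicate 2 or with the muscle covariate. In that order, these fits had 817 of 16766, 1138 of 16799 and 1203 of 16496 tested genes lower at the same threshold. Over all genes, the number called was 845 with DESeq2, 20 with limma-voom, 20 with RLE scaling and 3 with the muscle covariate, and from 0 to 292 when 1 library was left out, with 292 without Control replicate 3, 89 without Control replicate 4 and 0 without BMAd-DTA replicate 1, BMAd-DTA replicate 6, Control replicate 1 or Control replicate 2. The cause was not tested. Of the pathway genes, 3 passed with DESeq2 and, leaving out 1 library, from 0 to 1, that being Prkar2b without Control replicate 3. The relations with the scores that passed numbered 7 to 11, with 11 without BMAd-DTA replicate 7, of which 4 were with the muscle score. None of the ratios to Plin1 passed under any alternative. Low counts limit what can be said of Plin5, Cidea and Adrb3.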
